A study of Mus musculus with 24 samples.

Results

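The dystrophin glycoprotein complex was described here through 8 genes: Dmd, Utrn, Dag1, Sgca, Sgcb, Sgcd, Dtna and Sspn. Its members were all probes of the deposited signal table whose gene symbol in the platform annotation is one of these, which gave 25 of the 45281 probes on the array. A probe was kept where its signal stood above background, at a detection p-value under 0.01, on at least 5 arrays. This left 15 probes and 6 genes, Dag1, Sgca, Sgcb, Sgcd, Dtna and Sspn, against 13265 probes and 8943 genes in the whole series. None of the 6 genes passed the threshold of an adjusted p of 0.05 in any comparison of the groups when each was read from its brightest probe. Of the 15 probes, 1 passed, a dim probe of Sgcd near background in the old groups. It was lower in both groups of old mice than in young mice, while the brighter Sgcd probe was not. Both calls share the same young mice, and each was lost on leaving out some single mice.

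The complex spans the membrane of the muscle fibre and ties the actin cytoskeleton inside to the basement membrane outside. Dystrophin binds actin and the inner tail of dystroglycan, dystroglycan binds laminin through sugar chains on its outer part, and the sarcoglycans with sarcospan hold the assembly together. Loss of dystrophin causes Duchenne muscular dystrophy in humans and the dystrophy of the mdx mouse, and loss of a sarcoglycan causes limb-girdle muscular dystrophy in humans.

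Expression was measured in gastrocnemius, a calf muscle, of male mice of the B6D2F1 hybrid strain from a colony kept for the National Institute on Aging. The restricted group was 24 months old and kept under caloric restriction (5 mice on 7 arrays), the old ad libitum group was 24 months old and fed freely (6 mice on 7 arrays), and the young ad libitum group was 8 months old and fed freely (6 mice on 10 arrays). The labels state neither the degree nor the duration of the restriction. A name that recurs in the labels was read as 1 mouse on several arrays, and since nothing in the labels says outright that the names are separate animals, the p-values speak only to the spread among these samples. The design asks about diet and about age, so restricted mice were set against old ad libitum mice for diet, and old ad libitum against young mice for age. Restricted mice were also set against young mice. These groups differ in both age and diet, so age and diet cannot be told apart in that comparison. The 3 comparisons share groups, so they are not independent of each other.

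The 10 fast fibre markers looked up were detected on all 24 arrays. The number of probes detected on an array was 13625 to 14401 for restricted mice, 13974 to 14890 for old ad libitum mice and 13662 to 15176 for young mice. The arrays sat on 4 chips of 6, each holding all 3 groups, and precision is limited by how few mice there were. The mean of 9 slow fibre markers varied widely, from 8.45 to 11.79 on the log2 scale in restricted mice, 8.02 to 10.55 in old ad libitum mice and 8.37 to 10.24 in young mice. Against old ad libitum mice these markers were higher in restricted mice for 9 of 9 (median log2 difference 1.10, none past the threshold). Against young mice they were also higher for 9 of 9 (median 1.61), and 1 passed, where 4.7% of all genes did. Where a call on restricted mice is lost with the slow fibre score as a covariate, this is given beside it. The muscle was measured whole, so fewer cells of a type and less RNA per cell cannot be told apart.

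Dystrophin, encoded by Dmd, is the rod-shaped protein that gives the complex its name. None of its 3 probes was detected on any of the 24 arrays, with signals between 66.1 and 116 and detection p-values between 0.0972 and 0.941. Since 0 detected arrays were found in each group, no level of Dmd can be compared between them. Whether these probes work was not tested, so the values do not show that Dmd is absent from this muscle. Utrophin, encoded by Utrn, is a relative of dystrophin that in adult muscle sits at the neuromuscular junction. Of its 5 probes, 4 were detected on no array, and the brightest was detected on 3 of 24, 1 in each group. On the normalised log2 scale that Utrn probe lay between 5.38 and 5.98 in restricted mice, 5.41 and 5.98 in old ad libitum mice and 5.26 and 6.18 in young mice, so the groups overlapped. Probe 3 of Sgcd and probe 6 of Dtna were also detected on no array. These 10 probes were not tested.

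**Figure D1:**
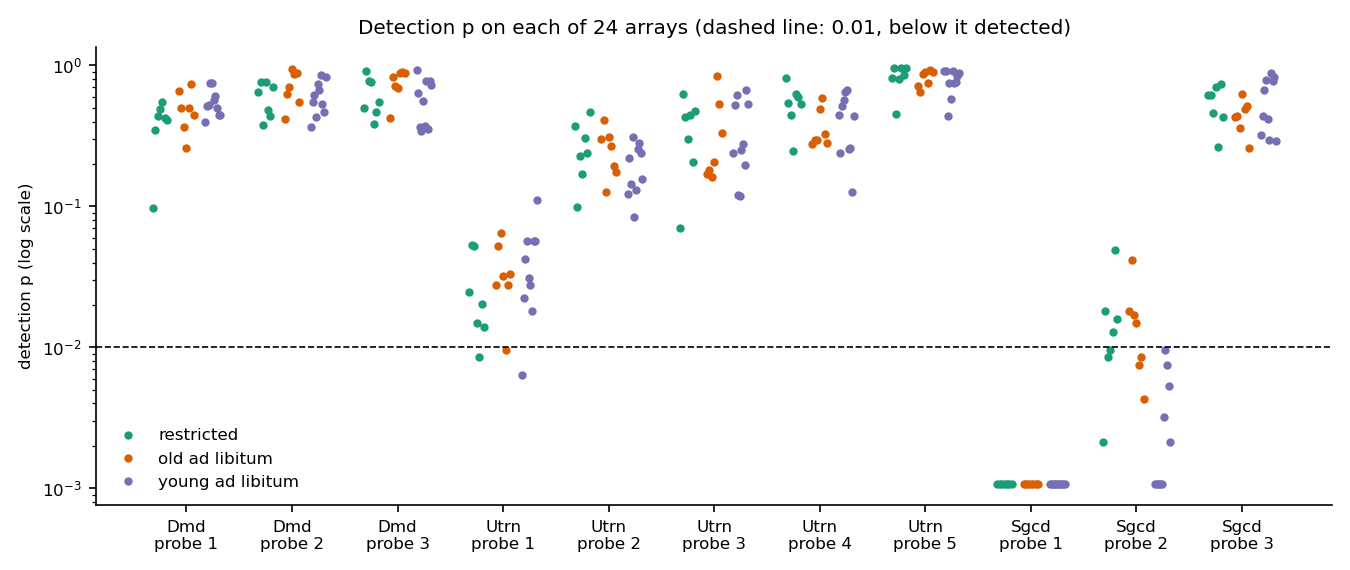
Detection p-value (log scale, vertical axis) of each Dmd, Utrn and Sgcd probe on each of the 24 arrays, coloured by group, with the detection limit of 0.01 as a dashed line. All points of the 3 Dmd probes lie above the line, and Sgcd probe 2 lies below it on 3 of 7 arrays of restricted mice, 3 of 7 of old ad libitum mice and 10 of 10 of young mice.

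Dag1 encodes the precursor that is cleaved into alpha-dystroglycan, which binds laminin, and beta-dystroglycan, which binds dystrophin. Its brighter probe read 12.58, 12.30, 11.90, 12.29 and 12.38 in restricted mice 1 to 5 on the log2 scale. In old ad libitum mice the lowest, median and highest values were 11.66, 12.50 and 12.59, and in young mice they were 12.33, 12.67 and 12.86. Old ad libitum mice 2 and 3, at 11.90 and 11.66, and restricted mouse 3 stood lowest, and both old groups overlapped the young group. The mean was 12.29 ± 0.25 in restricted mice (SD, n = 5), 12.28 ± 0.40 in old ad libitum mice (SD, n = 6) and 12.65 ± 0.18 in young mice (SD, n = 6).

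Between old ad libitum and young mice the log2 difference of Dag1 was -0.37 ± 0.16 (SE, 95% interval -0.70 to -0.04), with an unadjusted p of 0.0281 and an adjusted p of 0.202 in limma, which does not pass the threshold. Between restricted and young mice it was -0.36 ± 0.16 (95% interval -0.71 to -0.02, adjusted p = 0.205), and between restricted and old ad libitum mice 0.01 ± 0.16 (95% interval -0.34 to 0.35, adjusted p = 0.99). The second probe gave -0.36, -0.41 and -0.05 in the same order, and the probes of Dag1 tracked each other closely, with a correlation of 0.95 across the 17 mice after the group means were taken off. Both are probes of 1 gene in the same RNA, so this describes the measurement. Within chips the brighter probe was lower in old ad libitum mice than in the young group on 4 of 4 (-0.53 to -0.11) and lower in restricted than in young mice on 4 of 4 (-0.51 to -0.09). The chips are not separate sets of mice, since young mouse 6 was on all 4 and old ad libitum mouse 3, restricted mice 2 and 5 and young mouse 2 each on a pair of them. Repeated arrays of a mouse had an SD of 0.06 for this probe, well under its spread between old mice. The old against young difference was -0.25 without old ad libitum mouse 3.

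The promoter of Dag1 is shown because this gene had the widest differences from young mice among the 6 read from their brightest probe. The window runs from 250 bases before to 50 after a transcription start in RefSeq (mouse build GRCm38.p6, minus strand), at chr9:108263909-108264208, and capitals mark the E-box letters CANNTG, the core that many basic helix-loop-helix factors read.
Dag1: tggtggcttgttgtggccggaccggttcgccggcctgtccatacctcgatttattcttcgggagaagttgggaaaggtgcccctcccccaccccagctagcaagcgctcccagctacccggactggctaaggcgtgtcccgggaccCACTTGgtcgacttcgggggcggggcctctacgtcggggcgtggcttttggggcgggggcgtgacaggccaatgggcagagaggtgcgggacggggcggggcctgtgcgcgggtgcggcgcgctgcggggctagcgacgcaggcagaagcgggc
This window holds 1 E-box. CANNTG reads the same on both strands, so searching the strand shown covers both. Of the 32851 mouse promoter windows of 300 bases in the RefSeq table, 72.3% hold at least 1. CAGCTG, a form of the E-box bound by myogenic factors, was in none of the windows of the members and in 16.3% of all windows.

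The sarcoglycans are membrane proteins that form a unit beside dystroglycan, and Sgca encodes alpha-sarcoglycan, the subunit most restricted to striated muscle. The brightest Sgca probe read 12.10, 12.02, 12.09, 12.11 and 12.06 in restricted mice 1 to 5. Its lowest, median and highest values were 11.86, 11.96 and 12.15 in old ad libitum mice, and 11.78, 11.94 and 12.09 in young mice. Restricted mice lay close together near the top of the range, with an SD of 0.04 against 0.10 in old ad libitum and 0.13 in young mice, and all groups overlapped. The log2 difference was 0.10 ± 0.07 for restricted against old ad libitum mice (SE, 95% interval -0.06 to 0.25, adjusted p = 0.489) and 0.14 ± 0.07 for restricted against young mice (95% interval -0.01 to 0.29, adjusted p = 0.275). For old ad libitum against young mice it was 0.04 ± 0.07 (adjusted p = 0.772). A second probe gave 0.12, 0.16 and 0.04 for the same comparisons, and none of these passed, the lowest adjusted p being 0.184.

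Probe 3 of Sgca, a dimmer probe, had another pattern. It read 9.17, 8.83, 9.23, 9.47 and 9.57 in restricted mice 1 to 5. In old ad libitum mice its lowest, median and highest values were 8.88, 9.07 and 9.14, and in young mice 9.17, 9.26 and 9.45. All 6 old ad libitum mice lay below all 6 young mice on this probe, and restricted mice spread over both. Over all kept probes, 3.09% showed no overlap between old ad libitum and young mice. The old against young difference was -0.24 ± 0.10 (SE, 95% interval -0.45 to -0.03), but its adjusted p of 0.187 did not pass. Across the 17 mice this probe correlated at 0.23 and 0.34 with the other Sgca probes within groups, while those correlated at 0.71 with each other.

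Sgcb encodes beta-sarcoglycan, and none of its differences passed the threshold. Its brighter probe read 10.88, 10.73, 10.95, 11.00 and 10.83 in restricted mice 1 to 5, with medians of 10.88 in old ad libitum mice (range 10.68 to 11.12) and 10.86 in young mice (range 10.73 to 11.02). The log2 difference was 0.02 ± 0.08 for restricted against old ad libitum mice (SE, 95% interval -0.16 to 0.19, adjusted p = 0.938) and -0.02 ± 0.08 for old ad libitum against young mice (95% interval -0.18 to 0.15, adjusted p = 0.926). For restricted against young mice it was 0.00 (95% interval -0.17 to 0.17, adjusted p = 0.999). The other Sgcb probe gave -0.17, 0.09 and -0.07 for restricted against old ad libitum, old ad libitum against young and restricted against young mice, with the lowest adjusted p at 0.31. For restricted against old ad libitum mice that probe had a 95% interval of -0.35 to 0.02 and was lower on 4 of 4 chips (-0.42 to -0.05), and the Sgcb probes correlated at 0.28 with each other across the 17 mice within groups.

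Sspn encodes sarcospan, a small membrane protein that binds the sarcoglycans, and had 1 probe. It read 10.77, 10.73, 10.70, 10.62 and 10.51 in restricted mice 1 to 5, while old ad libitum mice spread from 10.53 over a median of 10.89 to 11.10 and young mice from 10.60 over 10.66 to 10.83. Old ad libitum mice 4, 5 and 6, at 11.00, 11.01 and 11.10, were above every other mouse, and the remaining 3 lay among the others. The SD was 0.10 in restricted, 0.24 in old ad libitum and 0.09 in young mice. No difference passed: -0.17 ± 0.10 for restricted against old ad libitum mice (SE, adjusted p = 0.36), 0.14 ± 0.09 for old ad libitum against young mice (adjusted p = 0.442) and -0.03 ± 0.10 for restricted against young mice (adjusted p = 0.891).

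**Figure D2:**
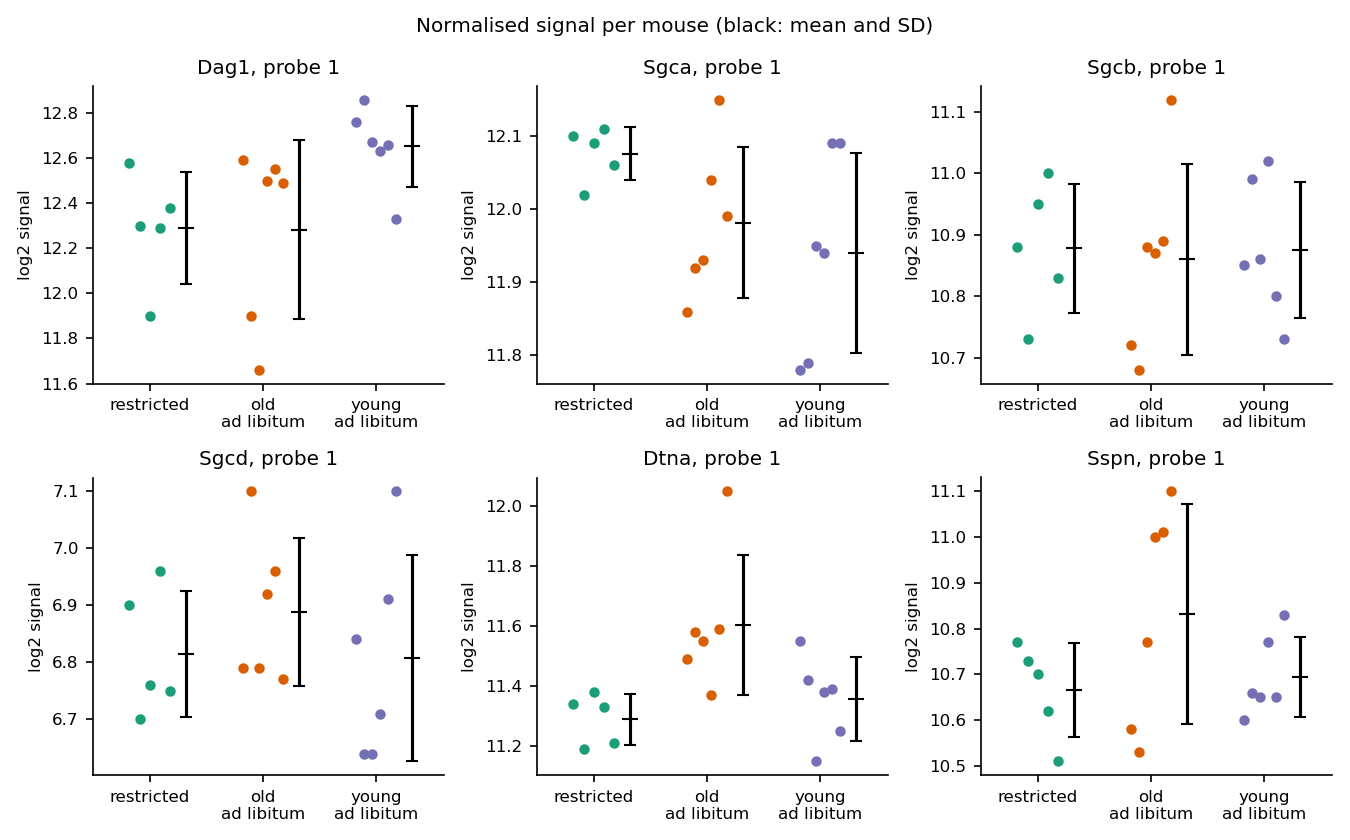
Normalised log2 signal (vertical axis) of the brightest probe of each of the 6 tested genes, 1 point per mouse, with restricted, old ad libitum and young ad libitum mice from left to right and the mean and SD in black beside them. Each panel has its own scale, and the groups overlap in all 6 panels, with old ad libitum mouse 6 at 12.05 for Dtna above every other mouse.

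Sgcd encodes delta-sarcoglycan, a subunit of the sarcoglycan core in skeletal, cardiac and smooth muscle. Its brighter probe was detected on all 24 arrays and read 6.90, 6.70, 6.76, 6.96 and 6.75 in restricted mice 1 to 5. It had medians of 6.85 in old ad libitum mice (range 6.77 to 7.10) and 6.77 in young mice (range 6.64 to 7.10), so the groups overlapped. Its log2 differences were -0.07 ± 0.09 for restricted against old ad libitum mice, 0.08 ± 0.09 for old ad libitum against young mice and 0.01 ± 0.09 for restricted against young mice (SE, adjusted p = 0.71, 0.647 and 0.973).

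The second Sgcd probe, ILMN_2696134, was close to background. It was detected on 3 of 7 arrays of restricted mice, 3 of 7 of old ad libitum mice and 10 of 10 of young mice. It read 6.28, 5.99, 5.97, 5.85 and 5.64 in restricted mice 1 to 5, and its lowest, median and highest values were 5.52, 5.95 and 6.12 in old ad libitum mice and 6.18, 6.40 and 6.62 in young mice. All 6 old ad libitum mice lay below all 6 young mice, and so did 4 of 5 restricted mice, with restricted mouse 1 inside the young range. Old ad libitum and young mice did not overlap for 3.09% of all kept probes. Its normalised signal was lower in old ad libitum mice than in the young group (log2 difference -0.50 ± 0.12 SE, adjusted p = 0.0311). It was also lower in restricted than in young mice (-0.46 ± 0.12 SE, adjusted p = 0.045). Since this probe was not above background on most arrays of either old group, its level there was measured only in part, and these differences are no fold changes of Sgcd. For this probe restricted and old ad libitum mice differed by 0.05 ± 0.12 (SE, adjusted p = 0.876). Within chips the difference had the same sign on 4 of 4, at -0.60 to -0.25 for old ad libitum and -0.53 to -0.35 for restricted against young mice.

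The calls on that Sgcd probe were close to the threshold. For old ad libitum against young mice the adjusted p ran up to 0.0804 when 1 mouse was left out, and the call was lost without old ad libitum mouse 2 or without young mouse 1, 2, 3 or 4. For restricted against young mice it ran up to 0.103, and the call was lost without restricted mouse 2, 3, 4 or 5, old ad libitum mouse 3, or young mouse 1, 2, 3, 4 or 5. Without background correction the differences were -0.25 for old ad libitum and -0.23 for restricted against young mice, of which the second no longer passed (adjusted p = 0.0558). The call for restricted against young mice was also lost with the slow fibre covariate (-0.48, adjusted p = 0.102). Within groups, the 2 Sgcd probes correlated at -0.39 across the 17 mice, and the parts of the transcript they match were not analysed here.

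**Figure D3:**
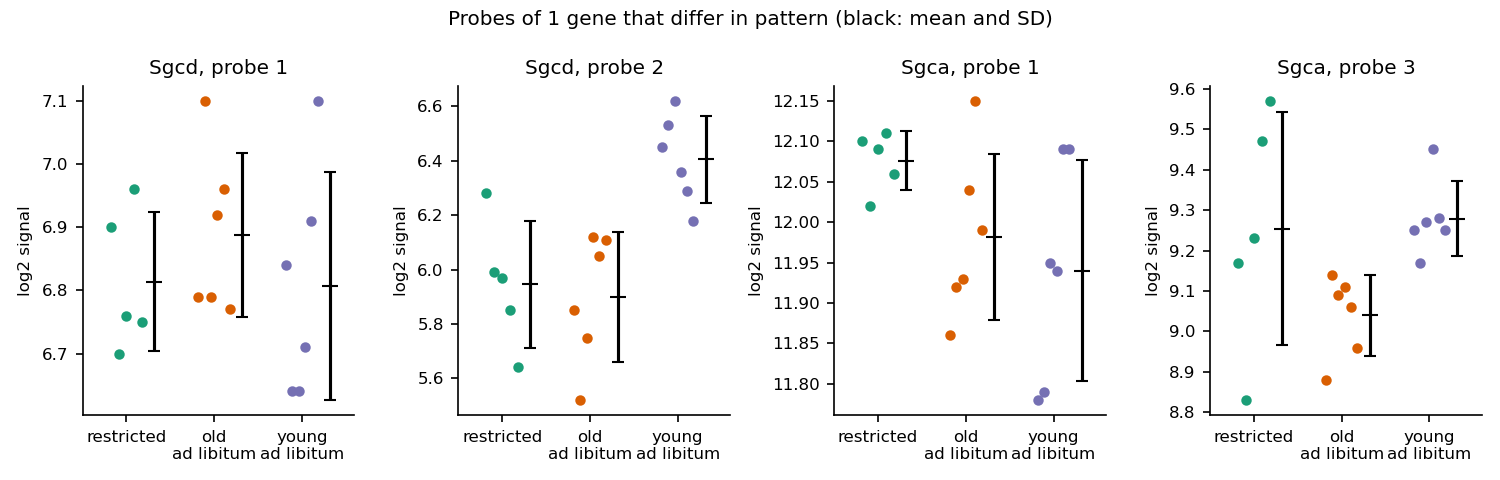
Normalised log2 signal per mouse for 2 probes each of Sgcd and Sgca, with restricted, old ad libitum and young ad libitum mice from left to right, the mean and SD in black, and a separate vertical scale per panel. For Sgcd probe 2 and Sgca probe 3 all 6 old ad libitum mice lie below all 6 young mice, while for the brighter probe of the same gene the groups overlap. Over all kept probes, old ad libitum and young mice do not overlap for 3.09%.

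The promoters of Sgcd, the gene with a probe past the threshold, and of Sgca, the striated muscle subunit with probes that disagree in the same comparison, are shown for setting side by side. They are 300-base RefSeq windows of build GRCm38.p6 on the minus strand, at chr11:47379276-47379575 for Sgcd and chr11:94976278-94976577 for Sgca, with CANNTG in capitals.
Sgcd: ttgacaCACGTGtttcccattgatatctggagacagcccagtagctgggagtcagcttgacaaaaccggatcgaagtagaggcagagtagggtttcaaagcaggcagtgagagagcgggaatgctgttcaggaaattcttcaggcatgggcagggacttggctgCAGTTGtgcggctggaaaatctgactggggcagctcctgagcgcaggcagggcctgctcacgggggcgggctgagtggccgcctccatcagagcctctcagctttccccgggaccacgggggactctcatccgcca
Sgca: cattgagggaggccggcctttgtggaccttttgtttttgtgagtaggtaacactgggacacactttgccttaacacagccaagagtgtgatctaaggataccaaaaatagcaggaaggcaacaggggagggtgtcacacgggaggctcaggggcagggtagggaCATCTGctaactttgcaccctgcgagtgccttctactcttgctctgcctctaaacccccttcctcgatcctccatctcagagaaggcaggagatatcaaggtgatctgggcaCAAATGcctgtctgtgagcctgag
Each holds 2 E-boxes, and 39.6% of all 32851 windows hold at least 2, so the count is common among promoters. Letters in a window are a description and do not show that a factor binds there.

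Dtna encodes alpha-dystrobrevin, a cytoplasmic partner of dystrophin that binds syntrophins and is also concentrated at the neuromuscular junction. Its brightest probe read 11.34, 11.19, 11.38, 11.33 and 11.21 in restricted mice 1 to 5. The lowest, median and highest values were 11.37, 11.57 and 12.05 in old ad libitum mice and 11.15, 11.38 and 11.55 in young mice. Of the restricted mice 4 of 5 lay below the whole old ad libitum group, and 4 of 6 old ad libitum mice lay above all young mice. The other old ad libitum mice and all restricted mice lay inside the young range. The mean was 11.29 ± 0.09 in restricted mice (SD, n = 5), 11.60 ± 0.23 in old ad libitum mice (SD, n = 6) and 11.35 ± 0.14 in young mice (SD, n = 6).

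The log2 difference of Dtna was -0.31 ± 0.10 between restricted and old ad libitum mice (SE, 95% interval -0.52 to -0.10, unadjusted p = 0.00659), and the adjusted p of 0.0964 did not pass the threshold. With all 24 arrays entered and the mouse as a random block it passed (-0.32, adjusted p = 0.044), and it also passed with the chip as a further block (-0.33, adjusted p = 0.0366). With the mean of all kept Dtna probes it was -0.13 (adjusted p = 0.444), and in the other settings it did not pass either. Between old ad libitum and young mice the difference was 0.25 ± 0.10 (SE, 95% interval 0.05 to 0.45, adjusted p = 0.167), or 0.08 with the mean of the probes (adjusted p = 0.634), and between restricted and young mice -0.06 ± 0.10 (95% interval -0.27 to 0.15, adjusted p = 0.765). Within chips the Dtna probe was lower in restricted than in old ad libitum mice on 4 of 4 (-0.78 to -0.25). In old ad libitum mice it was higher than in the young group on 4 of 4 (0.13 to 0.68). The widest values, -0.78 and 0.68, came from the chip where mouse 6 gave the only old ad libitum array. On the other chips the differences were -0.28 to -0.25 and 0.13 to 0.24. A second Dtna probe read 9.88, 9.64, 10, 9.86 and 9.83 in restricted mice 1 to 5, with medians of 9.97 in old ad libitum mice (range 9.94 to 10.29) and 9.81 in young mice (range 9.66 to 9.95). Its differences were -0.18 ± 0.08 for restricted against old ad libitum mice (SE, adjusted p = 0.239) and 0.22 ± 0.08 for old ad libitum against young mice (adjusted p = 0.123). The 3 dimmer kept probes of Dtna had differences between -0.14 and 0.08 in the 3 comparisons, and none passed.

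Old ad libitum mouse 6 was the highest mouse on both bright Dtna probes, at 12.05 and 10.29. Without it the Dtna difference was -0.22 for restricted against old ad libitum mice and 0.16 for old ad libitum against young mice. The mean of the neuromuscular junction markers, among them acetylcholine receptor subunits, was 8.92 in this mouse and 8.78 in old ad libitum mouse 5, both above every other mouse. Mouse 5 read 11.59 and 9.94 on the Dtna probes, the second of these at the low end of its group. That mean of the markers ran from 8.10 to 8.30 in restricted mice, 8.15 to 8.92 in old ad libitum mice and 7.94 to 8.09 in young mice. Of 11 tested junction markers 11 had a higher mean in old ad libitum mice than in the young group. Of these 1 passed, the receptor subunit Chrnb1 (1.41-fold, adjusted p = 0.013), where 2.06% of all genes passed. Chrnd and Colq were not tested because they were not detected on enough arrays. The part of the junction markers in the Dtna values was not tested.

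**Figure D4:**
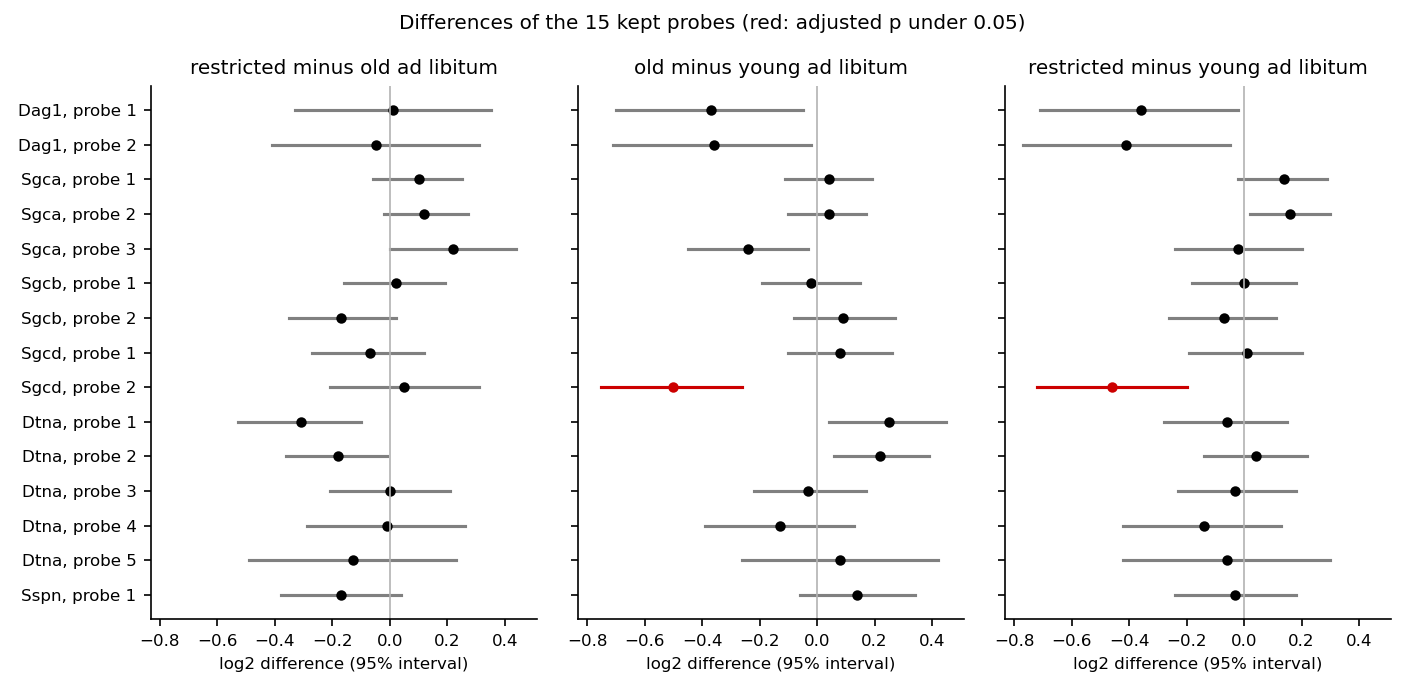
Log2 difference (point) with its 95% interval (line) of each of the 15 kept probes for restricted minus old ad libitum, old minus young ad libitum, and restricted minus young ad libitum mice, from left to right. The Sgcd probe 2 is the only one in red, past an adjusted p of 0.05, at -0.50 and -0.46 in the middle and right panels.

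Read from the brightest probe, 0 of 6 members passed for restricted against old ad libitum mice, where 3.18% of the 8943 genes passed. The counts were 0 of 6 for old ad libitum against young mice, where 2.06% passed, and 0 of 6 for restricted against young mice, where 4.7% passed. The background shares are low, so a count of 0 of 6 does not set the members apart. At an unadjusted p under 0.05 there were 1, 2 and 1 of 6 members in limma, where 19.8%, 19.4% and 21.5% of all genes stood. The median size of the difference was 0.08, 0.11 and 0.05 over the 6 members, against 0.12, 0.11 and 0.12 over all genes. The groups overlapped for all 6 genes in each comparison, while they did not overlap for 2.36%, 2.59% and 5.13% of all genes. By probe, 0 of 15 passed for restricted against old ad libitum mice (2.69% of 13265 probes), 1 of 15 for old ad libitum against young mice (3.15%) and 1 of 15 for restricted against young mice (4.06%). At an unadjusted p under 0.05 there were 2, 6 and 4 of 15 member probes, against 19.2%, 20.6% and 20.1% of all probes. The groups did not overlap for 0, 2 and 0 of 15 member probes, against 2.19%, 3.09% and 4.88% of all probes, and probes of 1 gene are not independent of each other.

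Correlations between members were moderate at most. Over the 15 pairs of the 6 genes, the correlation across 17 mice with group means taken off was highest for Sgcb with Dtna, at 0.60, and lowest for Sgcb with Sgcd, at -0.39. Sgca correlated at 0.54 with Sspn and at 0.52 with Sgcd. The genes most alike were taken from all genes tested, and so are not set against the few members. Those most like Dag1 were Zfp148, a zinc finger transcription factor (0.94), Vcp, the AAA ATPase p97 (0.91), and Cacna2d1, a calcium channel subunit (0.91). Those most like Dtna were Rnf115 (0.91), Lrpprc (0.90) and Plekhb2 (0.89), and those most like Sspn were Armh4 (0.92), Med19 (0.90) and Cct3 (0.89). For Sgca they were Abcf3 (0.90), Ttc4 (0.89) and Rpl31 (0.86), for Sgcb Sec16a (0.82), Rprd1b (0.81) and Pgam5 (0.80), and for Sgcd Cbx7 (0.82), 0610009B22Rik (0.75) and Pex10 (0.74). They are the highest values among all genes tested, over 17 mice measured on shared chips and normalised together.

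Of the other subunits and partners of the complex, 10 were on the array and 4 were tested: Cav3, Drp2, Nos1 and Sntb2. None passed in any comparison, and the medians of their differences were 0.02 for restricted against old ad libitum, -0.11 for old ad libitum against young and -0.05 for restricted against young mice, against -0.02, 0.02 and -0.01 over all genes. Cav3, the caveolin of muscle fibres, had the smallest p in the diet and age comparisons, at -0.15 ± 0.11 for restricted against old ad libitum mice (SE, adjusted p = 0.472) and 0.23 ± 0.11 for old ad libitum against young mice (adjusted p = 0.248). Nos1, the neuronal nitric oxide synthase that is anchored to the complex by syntrophin, differed by -0.05 ± 0.14 and -0.03 ± 0.14 in those comparisons. Sgce, Sgcz, Sntb1, Sntg1, Sntg2 and Dtnb were not detected on enough arrays to be tested.

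The sugar chains by which dystroglycan binds laminin are built by a set of glycosyltransferases and enzymes that supply their substrates, of which 13 were tested. None passed between restricted and old ad libitum or between old ad libitum and young mice. Between restricted and young mice 2 of 13 passed, where 4.7% of all genes did. B3galnt2, which adds a sugar to the chain on dystroglycan, was 1.40-fold lower in restricted than in young mice (-0.49 ± 0.13 SE, adjusted p = 0.0384), and its other kept probes gave -0.35, -0.54 and -0.55 without passing. Gmppa, which regulates the supply of GDP-mannose, was 1.20-fold higher (0.26 ± 0.07 SE, adjusted p = 0.035), but another probe of it gave -0.05. The call of B3galnt2 was lost without restricted mouse 1, 2, 3 or 4 or young mouse 1, 2, 3, 4 or 5 (adjusted p up to 0.0967), and that of Gmppa without restricted mouse 2, 3 or 4 or young mouse 1, 2, 3 or 4 (adjusted p up to 0.0908). Both calls were also lost with the slow fibre covariate (adjusted p = 0.114 for B3galnt2 and 0.0733 for Gmppa). Dolk, the dolichol kinase, had the smallest p for restricted against old ad libitum mice (0.21 ± 0.07 SE, adjusted p = 0.0762). For Dolk the 5 restricted mice were above the whole old ad libitum group, and these groups did not overlap for 2.36% of all genes. Pomgnt1, which extends the O-mannose sugar, had it for old ad libitum against young mice (0.20 ± 0.07 SE, adjusted p = 0.136). The median of the 13 was 0.03, 0.04 and 0.10 in the 3 comparisons, against -0.02, 0.02 and -0.01 over all genes.

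Outside the fibre, dystroglycan faces laminins and other basement membrane proteins. Of 14 tested ligands and matrix partners, 12 were lower in restricted than in young mice. The median difference of the 14 was -0.30, against -0.01 over all genes. Past the threshold were 3 of the 14, all lower, where 4.7% of all genes passed in either direction. Col4a1 and Col4a2, the chains of the main collagen IV network, fell 1.65-fold (-0.73 ± 0.14 SE, adjusted p = 0.00967) and 1.55-fold (-0.63 ± 0.12 SE, adjusted p = 0.00712) in restricted mice. Hspg2, encoding perlecan, a proteoglycan that binds dystroglycan, fell 1.44-fold (-0.53 ± 0.12 SE, adjusted p = 0.0236), and its other probe gave -0.37. For Col4a1, Col4a2 and Hspg2 all 5 restricted mice lay below all 6 young mice, and these groups did not overlap for 5.13% of all genes. The Hspg2 call was lost without restricted mouse 3 or without young mouse 1, 2, 3 or 4, with an adjusted p of up to 0.0733, and also with the replicate block (0.0659) and with the slow fibre covariate (adjusted p = 0.0799).

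Between old ad libitum and young mice 12 of the 14 ligands and matrix partners were likewise lower, with a median of -0.26 against 0.02 over all genes. Of the 14, 1 passed, where 2.06% of all genes did. Nid2, encoding nidogen-2, which links laminin to collagen IV, fell 1.48-fold in old ad libitum mice (-0.56 ± 0.12 SE, adjusted p = 0.0272). All 6 lay below all 6 young mice, and these groups did not overlap for 2.59% of all genes. The call of Nid2 was lost without young mouse 2 or 3 (adjusted p = 0.0742 and 0.0683). Lama2, the laminin alpha chain of the fibre's basement membrane, differed by -0.28 between old ad libitum and young mice and by -0.11 between restricted and young mice, without passing. Between restricted and old ad libitum mice none of the list passed, with 7 higher and 7 lower and a median of -0.01. At an unadjusted p under 0.05 in limma there were 6 of 14, against 19.8% of all genes. Among these, Agrn (-0.26), Col4a1 (-0.30) and Hspg2 (-0.28) were lower in restricted mice and Nid2 (0.28) was higher, and the smallest p was that of Bgn, the proteoglycan biglycan (-0.36 ± 0.14 SE, adjusted p = 0.153). Lama4, Lamc3 and Egflam were not detected on enough arrays.

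**Figure D5:**
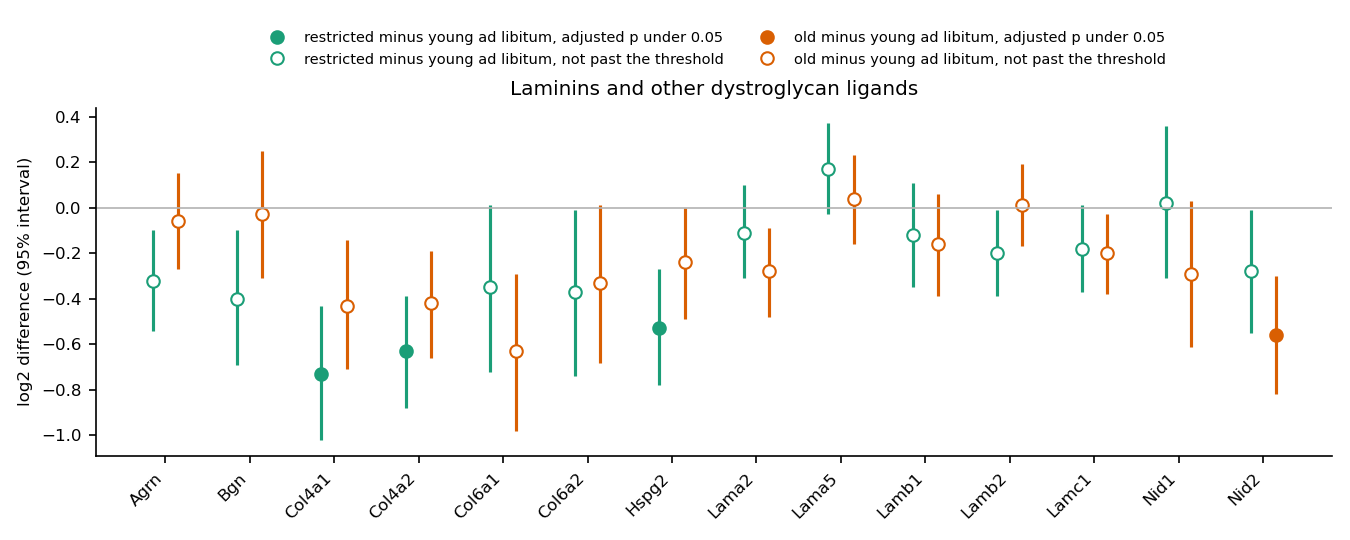
Log2 difference with its 95% interval of each of the 14 tested dystroglycan ligands and matrix partners, filled where the adjusted p is under 0.05. The left point is restricted minus young and the right point old minus young ad libitum mice. In each comparison 12 of the 14 lie below 0, with Col4a1, Col4a2 and Hspg2 filled for restricted mice and Nid2 for old ad libitum mice.

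Matrix genes are made largely by cells between the fibres, and markers of fibroblasts and endothelium are given here. All 9 tested fibroblast markers were lower in both old groups than in young mice, none past the threshold, with medians of -0.26 for restricted against young and -0.49 for old ad libitum against young mice. Their mean per mouse ran from 9.33 to 9.92 in restricted mice, 8.87 to 9.95 in old ad libitum mice and 9.66 to 9.98 in young mice. Endothelial markers were lower in restricted than in young mice for 9 of 9, at a median of -0.20, and in old ad libitum mice than in the young group for 8 of 9, at a median of -0.13, with none past the threshold. Their mean ran from 8.99 to 9.27, 8.96 to 9.55 and 9.21 to 9.42 in restricted, old ad libitum and young mice, and Kdr was not tested. Between restricted and old ad libitum mice 8 of 9 fibroblast markers were higher in restricted mice (median 0.14). Of the endothelial markers 6 of 9 were lower in restricted mice (median -0.05), and none of either set passed. The part of these cells in the values of the matrix genes was not tested.

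The integrin link runs beside the dystrophin complex as a further attachment of the fibre to laminin, and 13 of its genes were tested. Fermt2, encoding kindlin-2, an activator of integrins, was lower than in young mice in both old groups. In restricted mice it fell 1.31-fold (-0.39 ± 0.07 SE, adjusted p = 0.00791) and in old ad libitum mice 1.30-fold (-0.38 ± 0.07 SE, adjusted p = 0.013). All 5 restricted and all 6 old ad libitum mice lay below all 6 young mice, which are the same in both comparisons. The groups did not overlap for 5.13% and 2.59% of all genes in these comparisons. No other gene of the list passed. The count against young mice was 1 of 13 for each old group, where 4.7% (restricted) and 2.06% (old ad libitum) of all genes passed. None passed for restricted against old ad libitum mice, where Itgb1, the integrin beta 1 chain, had the smallest p (-0.39 ± 0.11 SE, adjusted p = 0.0636). The call of Fermt2 for old ad libitum mice was lost without young mouse 2 (adjusted p = 0.0511). The medians of the list were -0.05, 0.04 and -0.11 for restricted against old ad libitum, old ad libitum against young and restricted against young mice. Over all genes they were -0.02, 0.02 and -0.01.

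None of 16 tested genes of the costamere and the cortical cytoskeleton, to which dystrophin is anchored, passed in any comparison. Ank3, an ankyrin that helps place dystrophin at the membrane, had the smallest p for restricted against old ad libitum mice (-0.31 ± 0.10 SE, adjusted p = 0.108). Sptbn1, a beta-spectrin, had it for old ad libitum against young mice (-0.26 ± 0.12 SE, adjusted p = 0.231). The medians were -0.11, -0.04 and -0.20 in the 3 comparisons, against -0.02, 0.02 and -0.01 over all genes.

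Of 16 tested genes of membrane repair, which closes tears in the fibre membrane, 2 fell in restricted against old ad libitum mice, 1 rose in old ad libitum against young mice and 2 fell in restricted against young mice. Over all genes, 3.18%, 2.06% and 4.7% passed in these comparisons, in either direction. Anxa2, encoding annexin A2, which gathers at membrane wounds, fell 1.47-fold in restricted against old ad libitum mice (-0.55 ± 0.12 SE, adjusted p = 0.0255) and 1.5-fold against young mice (-0.59 ± 0.12 SE, adjusted p = 0.0146). Dysf, encoding dysferlin, whose loss causes a muscular dystrophy in humans, fell 1.23-fold in restricted against old ad libitum mice (-0.30 ± 0.07 SE, adjusted p = 0.0309), and 4 of 5 restricted mice were below the whole old ad libitum group. Its other probes gave -0.30 and -0.33 without passing. Anxa5, encoding annexin A5, fell 1.41-fold in restricted against young mice (-0.50 ± 0.10 SE, adjusted p = 0.0142), with all 5 below all 6 (no overlap for 5.13% of all genes). Anxa4 rose 1.35-fold in old ad libitum against young mice (0.43 ± 0.11 SE, adjusted p = 0.0453), and its other probe, at 0.25, also passed (adjusted p = 0.0432). The calls of Anxa2 and Dysf for diet were lost without some single mice: for Anxa2 without restricted mouse 1, 3 or 4 (adjusted p up to 0.0729), and for Dysf without restricted mouse 1, 2, 3 or 4 or old ad libitum mouse 5 or 6 (adjusted p up to 0.0875). Both were also lost with the replicate block (adjusted p = 0.0569 for Anxa2 and 0.0764 for Dysf), with only the 2 groups compared (0.0832 and 0.116) and with the slow fibre covariate (0.0622 and 0.0785). The call of Dysf was lost with the mean of its probes (adjusted p = 0.0531), and that of Anxa2 against young mice with the slow fibre covariate (adjusted p = 0.0692). The Anxa4 call was lost on leaving out any 1 of 13 of the 17 mice, with an adjusted p of up to 0.0985. The medians of the list were -0.09, 0.04 and -0.01 in the 3 comparisons, against -0.02, 0.02 and -0.01 over all genes. In the diet comparison macrophage markers were lower for 8 of 10 at a median of -0.28. Of these Mpeg1 and Tyrobp passed, where 3.18% of all genes did. The mean of the macrophage markers ran from 7.63 to 8.19 in restricted, 7.56 to 8.61 in old ad libitum and 7.98 to 8.44 in young mice. Their part in the annexin values was not tested.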

How the data were processed

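Total RNA of gastrocnemius was hybridised to Illumina bead arrays. Per the file headers, the authors deposited, for each probe, a signal intensity and a detection p-value on every array. Per the submitters' processing notes these came from GenomeStudio, whose version is not given in the sources used here. Processed intensity values deposited by the authors, with column medians of 98.6 to 98.66, served as an alternative.

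Signals were background corrected and quantile normalised with neqc (limma 3.58.1, R 4.3.3, offset 16). Probes detected (p under 0.01) on at least 5 arrays and with 1 gene symbol were kept. Of the 45281 probes, 34885 had 1 symbol, 18 had several and 10378 were not listed, and no symbol changed through its entrez identifier. Arrays of a mouse were averaged and groups compared with lmFit and eBayes over 17 mice in 1 fit (two-sided, Benjamini-Hochberg, threshold 0.05), once with the brightest kept probe of each of 8943 genes and once with all 13265 kept probes. Repeated arrays of a mouse correlated in their deviations at a median of 0.635, against 0.045 for different mice of a group. Array median signals ran from 82.9 to 120, and probe levels are not compared between probes.

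Named were all members and their probes, every gene of the pathway lists past the threshold, the smallest p of a list where none passed in the diet or the age comparison, and the 3 genes most like each member. Other genes named with values, such as Nos1, Lama2 and markers, were chosen after their values were seen. The members and lists were chosen with earlier results of these data known. The fit was tested on simulated data. The alternatives were 14 other settings and leaving out each of the 17 mice. Promoters came from RefSeq windows for 7 members; 1 member's window is not reported here. Figures were drawn with matplotlib 3.10.9.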

Additional observations from a re-analysis of the deposited data

Results flagged for a closer look

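In old ad libitum mice, mouse 6 stood apart from its group on both bright probes of Dtna: at a log2 value of 12.05 on probe 1, where the next highest mouse was at 11.59, and at 10.29 on probe 2, where the next was at 10.04. The gap was 0.677 and 0.708 of the range of the 6 mice. These were 2 of 45 groups of mice checked, and chance alone gives such a gap in about 1 in 20 groups. Both are probes of 1 gene in the same RNA, so they are not separate events.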

How the results depend on the processing

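Over all genes, the count past the threshold for restricted against old ad libitum mice was 284, and became 88 with a replicate block, 24 with only the 2 groups compared and 115 with the slow fibre score as covariate, where no other planned setting moved it over 1.5 times. For old ad libitum against young mice, 184 became 280 with 75th percentile scaling, 95 without a detection filter, 283 with 24 arrays and the mouse as random block, 280 with the chip as block as well, 286 with the mean of a gene's probes, 108 with the replicate block and 482 with array weights. For restricted against young mice, 420 became 273 without the filter, 244 with the replicate block, 1143 with array weights and 153 with the slow fibre covariate. Leaving out 1 mouse gave 66 to 502, 32 to 262 and 131 to 688. The share of higher among the calls was 65.2% for old ad libitum against young mice and 43.1% for restricted against young mice, but 80.7% and 55.6% with 75th percentile scaling. The replicate numbers were taken as names of mice, so the main fit holds no block for them. Same-numbered pairs correlated at a median of -0.05 (-0.23 to 0.21), with 5 of 16 over 0.1. Pairs with different numbers are not set beside them, so these values cannot tell whether the numbers pair the mice.

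Of the members, 0 passed for restricted against old ad libitum mice, and 1, Dtna, with the mouse as random block and with the chip as block too, where also 1 probe passed. By probe, the count of 1 for old ad libitum against young mice became 0 without the filter, with 1 array per mouse and with the replicate block, and 2 with array weights. The count of 1 for restricted against young mice became 0 without background correction, with the authors' processed values, without the filter, with the chip as block, with 1 array per mouse, with the replicate block, with trend and robust variances and with the slow fibre covariate. Leaving out 1 mouse gave 0 to 1 for both and 0 to 0 for restricted against old ad libitum mice. The causes were not tested.

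Differences near 0 in the main fit changed sign in other settings, none of them past the threshold. For restricted against old ad libitum mice, Dag1 was -0.01 (75th percentile), -0.02 (mean of probes) and 0 (replicate block), Sgcb 0 (75th percentile) and -0.07 (mean of probes), Dag1 probe 2 0.03 (array weights) and 0.08 (slow fibre covariate). Dtna probe 4 was 0.03 (replicate block) and 0.01 (array weights), Sgcd probe 2 was 0 (1 array per mouse), and Dtna probe 3 lay between 0 and 0.04, at 0.02 with 1 array per mouse and with array weights. For old ad libitum against young mice, the mean of probes gave -0.05 for Sgca and 0.04 for Sgcb (also with 75th percentile scaling). For Sgcd it gave -0.21 (adjusted p = 0.0909), against 0.08 from the brighter probe. For restricted against young mice, Sgcb was between -0.04 (mean of probes) and 0, at -0.01 in several settings, and Sspn was 0.01. In that comparison Sgcd was -0.01 and -0.02 with the random block settings. With the mean of probes Sgcd was -0.23 (adjusted p = 0.0836), against 0.01 from the brighter probe. With the slow fibre covariate Dtna probe 2 was -0.02, Dtna probe 3 was 0.03 and Sgca probe 3 was 0.08, the last at 0 with 75th percentile scaling and with 1 array per mouse.

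Leaving out 1 mouse, the differences that changed sign ranged as follows. For restricted against old ad libitum mice, Dag1 ran from -0.12 to 0.11, its probe 2 from -0.17 to 0.06, Sgcb from -0.02 to 0.07, Dtna probe 3 from -0.07 to 0.07, Dtna probe 4 from -0.10 to 0.05 and Sgcd probe 2 from -0.04 to 0.12. For old ad libitum against young mice, Sgcb ran from -0.07 to 0.02, Dtna probe 3 from -0.06 to 0.02 and Dtna probe 5 from 0 to 0.16. For restricted against young mice, Sgcb ran from -0.03 to 0.04, Sgcd from -0.03 to 0.07, Sspn from -0.06 to 0.01, Dtna probe 2 from 0 to 0.09, Dtna probe 3 from -0.10 to 0.04, Dtna probe 5 from -0.15 to 0.07 and Sgca probe 3 from -0.10 to 0.08. Running the pathway genes past the threshold under the same settings was chosen after seeing the data: over 31 settings calls were lost in 0 for Col4a1, Col4a2, Anxa5 and Fermt2 (restricted against young), 1 for Anxa2 (restricted against young), 2 for Fermt2 (old against young), 4 for Nid2, 6 for Anxa2 (restricted against old), 7 for Hspg2, 10 for Dysf, 11 for Gmppa, 12 for B3galnt2 and 21 for Anxa4. Beside single mice, Fermt2 (old against young) was lost with 75th percentile scaling (adjusted p = 0.051), and Nid2 without the filter (0.0505) and with only the 2 groups compared (0.0502). B3galnt2 was lost with 75th percentile scaling (adjusted p = 0.0745) and without the filter (0.0667), and Gmppa with the chip as block (0.0756), the replicate block (0.0747) and the mean of its probes (0.61). Anxa4 was lost in 8 processing settings, with adjusted p from 0.0505 to 0.122. Dmd, Utrn and Sgcd probe 2 are limited by signal at or near background.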
